A study of Mus musculus with 6 samples.

Results

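Bpifa1, Bpifb1, Lbp and Pltp encode secreted proteins that share the fold of bactericidal/permeability-increasing protein (BPI), and their transcripts were compared between 3 lungs of Nogo-A/B knockout mice and 3 lungs of wild-type mice. They were chosen by name, under their current or older symbols (Plunc for Bpifa1, U46068 for Bpifb1), with earlier results of these data known. Other BPI-fold genes also had probes and are described below. Each of the 4 had 1 probe, so that 4 of the 41174 probes and 4 of the 20241 genes compared belonged to this group. All 4 passed the filter on dim probes. The knockout lungs were numbered 1, 11 and 12 and the wild-type lungs 11, 12 and 13, and the design calls the 3 lungs of each genotype individual biological replicates. All were naive male mice aged 8 weeks, and the study's title names the part of Nogo in asthma as its subject. Nogo-A and Nogo-B are long isoforms encoded by the reticulon gene Rtn4, and the labels give neither the allele nor the strain background.

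Proteins of this fold hold lipids in a hydrophobic pocket, and several bind bacterial lipopolysaccharide. Bpifa1, or PLUNC, is among the most abundant secreted proteins of the nasal and conducting airway epithelium, where it lowers surface tension, limits bacterial growth and, in human cells, restrains the epithelial sodium channel. Bpifb1, or LPLUNC1, is a longer relative made by mucus-secreting cells of the airway. Lbp, the lipopolysaccharide-binding protein, passes lipopolysaccharide to CD14 and from there to the receptor TLR4, and is made by liver as an acute phase protein and by lung epithelium. Pltp, the phospholipid transfer protein, moves phospholipids between lipoprotein particles and is made in many tissues.

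Each value rests on 1 oligonucleotide of 60 bases. The 4 probe sequences are shown because they are what was measured. The longest run that each shared with a probe of any other gene was 13 bases for Bpifa1, 14 bases for Bpifb1, 14 bases for Lbp and 13 bases for Pltp. In the array files' own positions on the mouse build mm7, the probes lie on chromosome 2 at chr2:153888533-153888953 (Bpifa1), chr2:153958063-153959091 (Bpifb1), chr2:158069296-158072838 (Lbp) and chr2:164581164-164585120 (Pltp). A position longer than the probe is the span the array files give for it. The sequences are given in lower case with no part marked.
Bpifa1 probe: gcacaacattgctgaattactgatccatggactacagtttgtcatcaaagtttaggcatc
Bpifb1 probe: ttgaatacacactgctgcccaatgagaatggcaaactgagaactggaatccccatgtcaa
Lbp probe: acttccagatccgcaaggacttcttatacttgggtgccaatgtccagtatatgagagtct
Pltp probe: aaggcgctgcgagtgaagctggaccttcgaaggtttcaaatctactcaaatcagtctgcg

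Levels are log2 signals relative to the 75th percentile of the array, so that a level of 0 equals that percentile and each step of 1 doubles the signal, and levels are compared between lungs and not between probes. On each array, 68.9% to 78.0% of the probes were well above background, and precision is limited throughout by the number of arrays. Knockout 1, knockout 11 and wild type 13 were scanned on day 1, and knockout 12, wild type 11 and wild type 12 on day 2. Knockout 1 and wild type 13 shared slide 1, knockout 11 was on slide 2, and the day 2 arrays shared slide 3. As a check of the labels, a probe in the Rtn4 locus (mm7 chromosome 11, 29649392 to 29649451) stood well above background in 0 of 3 knockout lungs and in 3 of 3 wild-type lungs, a difference of at least 14.2-fold. It is 1 of 4 Rtn4 probes. A pair of others, at 29693516 to 29693723 and 29693536 to 29694301, stood well above background in 3 of 3 knockout lungs, with knockout 1 at 1.01 and 0.995 against lowest wild-type levels of 1.53 and 1.38, and the last was well above background in wild type 13 alone. The lung marker Sftpc, a surfactant protein of alveolar type 2 cells, had levels of 8.18 to 8.70 in the knockout and 7.74 to 8.17 in the wild type.

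Bpifa1 was far lower in every knockout lung than in any wild-type lung. Its level was -7.88 in knockout 1, -5.17 in knockout 11 and -5.77 in knockout 12, against 3.89 in wild type 11, 3.13 in wild type 12 and 3.60 in wild type 13. The groups did not overlap, and 8.30 log2 units separated the highest knockout lung from the lowest wild-type lung. The mean level was -6.27 ± 1.42 in the knockout and 3.54 ± 0.38 in the wild type (SD, n = 3 each). The log2 difference, knockout minus wild type, was -9.81 (SE 0.70, 95% interval -11.52 to -8.11). Its unadjusted p in limma was 6.61e-06, and its Benjamini-Hochberg adjusted p of 0.0669 missed the threshold of 0.05. The difference ranked the 1st of all 20241 genes by size and the 2nd by p. In whole lung RNA, fewer cells of a type and less RNA per cell cannot be told apart.

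The scanner readings show how dim the knockout spots were. The mean spot signal of Bpifa1, before any subtraction, was 70.0 in knockout 1, 114 in knockout 11 and 79.8 in knockout 12, against 29703 in wild type 11, 22426 in wild type 12 and 35447 in wild type 13. These readings were 1.44, 2.48 and 1.66 times the local background in the knockout lungs, in the same order, and 625, 458 and 738 times the local background in the wild-type lungs. The wild-type spots thus were bright without being saturated, while the spot of knockout 1 was not well above background and those of knockout 11 and knockout 12 were. With knockout 1 set at the lowest detected signal of its array, a level of -7.02, the difference of the means was -9.53, or 738-fold lower. That sets a bound for knockout 1 alone. Knockout 11 and knockout 12 entered as measured, from spots only 2.48 and 1.66 times the local background.

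The authors' own processed values, which follow the spot signal without background subtraction, gave a smaller difference in the same direction. On that log2 scale Bpifa1 was 6.06 in knockout 1, 6.99 in knockout 11 and 6.64 in knockout 12, against 14.93 in wild type 11, 14.21 in wild type 12 and 14.91 in wild type 13. The knockout values again lay together, far below those of the wild type. The difference was -8.12 (SE 0.30), or 278-fold lower, at an adjusted p of 6.76e-04 in limma, and Bpifa1 was the 1 gene of 20241 (0.00494%) past the adjusted threshold on those values. With array weights, with median scaling or with slide as a random block 2 genes (0.00988%) passed, Bpifa1 among them. Over all the alternative settings the difference ran between -10.37 and -7.98, with adjusted p between 6.09e-04 and 0.979. A fit with scan day as a block gave -9.70 (SE 0.79), day 1 alone gave -10.12 and day 2 alone gave -9.28. Between the arrays of slide 1, knockout 1 and wild type 13, the difference was -11.48.

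Bpifb1 was also lower in every knockout lung than in any wild-type lung, by less and with a wider spread. Its level was -5.33 in knockout 1, -1.24 in knockout 11 and -1.74 in knockout 12, against 1.84 in wild type 11, 0.79 in wild type 12 and 1.64 in wild type 13. Knockout 1 stood well below the other two knockout lungs, and the gap between the groups was 2.03. The mean level was -2.77 ± 2.23 in the knockout and 1.42 ± 0.55 in the wild type (SD, n = 3 each). The log2 difference was -4.19 (SE 1.08, 95% interval -6.81 to -1.57), or 18.3-fold lower. In limma the unadjusted p was 0.00768 and the adjusted p was 0.9998. It ranked the 4th of all genes by size and the 30th by p.

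Unlike Bpifa1, Bpifb1 was well above background on all 6 arrays, so its fold has measured values on both sides. Its spot in knockout 1 was still dim, at 2.35 times the local background, against 16.6 times in knockout 11 and 8.41 times in knockout 12. Its processed signal was 55.6 in knockout 1, 729 in knockout 11 and 342 in knockout 12, against 6235 in wild type 11, 3914 in wild type 12 and 7717 in wild type 13. The authors' values were 6.54, 9.63 and 9.27 in the knockout lungs, in the same order, and 12.60, 11.58 and 12.51 in the wild-type lungs. On both scales knockout 11 was the highest knockout lung and wild type 12 the lowest wild-type lung, as for Bpifa1. Blocking on scan day gave -3.99 (SE 1.21), with -4.92 on day 1 and -3.06 on day 2. Between knockout 1 and wild type 13, on slide 1, it was -6.97. Without knockout 1 the difference was -2.91.

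Lbp did not differ between the groups beyond their spread. Its level was 1.29 in knockout 1, 1.71 in knockout 11 and 2.14 in knockout 12, against 1.39 in wild type 11, 1.28 in wild type 12 and 1.78 in wild type 13. The groups overlapped, and the lung with the highest level was knockout 12. The mean level was 1.71 ± 0.43 in the knockout and 1.48 ± 0.26 in the wild type (SD, n = 3 each). Knockout minus wild type was 0.23 (SE 0.27, unadjusted p = 0.43 in limma) on the log2 scale, and the 95% interval, -0.43 to 0.90, leaves room for levels in the knockout from 0.74 to 1.86 times those of the wild type. The sign differed between scan days, at -0.28 within day 1 and 0.81 within day 2 (adjusted p = 0.191 in limma on day 2, unadjusted p = 0.00629). The test of that change between days gave an adjusted p of 0.403 in limma (unadjusted p = 0.0349).

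Pltp overlapped between the groups, and the size of its difference depended on single lungs. Its level was 2.27 in knockout 1, 2.47 in knockout 11 and 1.75 in knockout 12, against 1.49 in wild type 11, 1.16 in wild type 12 and 2.67 in wild type 13. The groups overlapped, since the highest level of all belonged to wild type 13. The mean level was 2.17 ± 0.37 in the knockout and 1.77 ± 0.80 in the wild type (SD, n = 3 each), and the log2 difference was 0.39 (SE 0.43, 95% interval -0.66 to 1.44), at an unadjusted p of 0.40 in limma. With genotype in the model, day 2 minus day 1 was -0.98 on the log2 scale for Pltp (unadjusted p = 0.00672, adjusted p = 0.0574 in limma). Blocking on scan day brought the genotype difference to 0.06 (SE 0.23), with -0.30 on day 1 and 0.43 on day 2. Without wild type 13 it was 0.84 (SE 0.28, unadjusted p = 0.0283, adjusted p = 0.657 in limma), with array weights it was 1.01 (SE 0.30, unadjusted p = 0.0149, adjusted p = 0.231 in limma), and without wild type 12 it was 0.08.

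**Figure D1:**
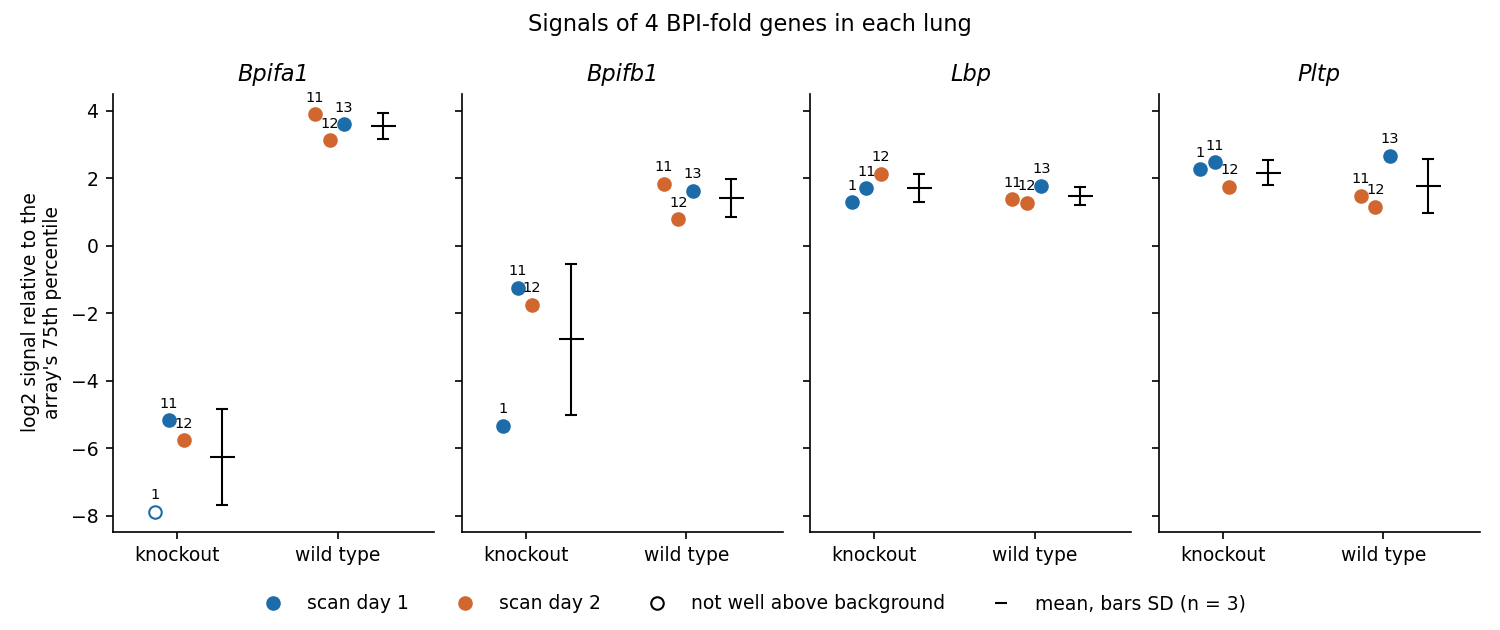
Levels of the 4 genes in each lung (y axis, log2 signal relative to the array's 75th percentile), knockout left and wild type right, with points coloured by scan day, open where the spot was not well above background, and bars for mean and SD (n = 3). All knockout points of Bpifa1 and Bpifb1 lie below all wild-type points, with a gap of 8.30 for Bpifa1 and 2.03 for Bpifb1, while the groups overlap for Lbp and Pltp.

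Across the group, 0 of 4 genes passed the adjusted threshold in limma, where 0.0% of all genes did (0 of 20241). At an unadjusted p under 0.05, 2 of 4 were lower in the knockout, where 0.622% of all genes were, and 0 of 4 were higher, where 0.336% of all genes were, which together make 194 genes or 0.958%. The groups did not overlap in the lower direction for 2 of 4, where the share over all genes was 1.47%, and in the higher direction for 0 of 4, where it was 2.75%. Of all 20241 genes, 4 (0.0198%) were lower by more than 4 log2 units, and Bpifa1 and Bpifb1 were 2 of them. Because the 4 genes were chosen with earlier results of these data known, these shares describe them and do not test the group. Of the 5 other BPI-fold genes measured, 0 were lower and 0 were higher at an unadjusted p under 0.05 in limma.

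**Figure D2:**
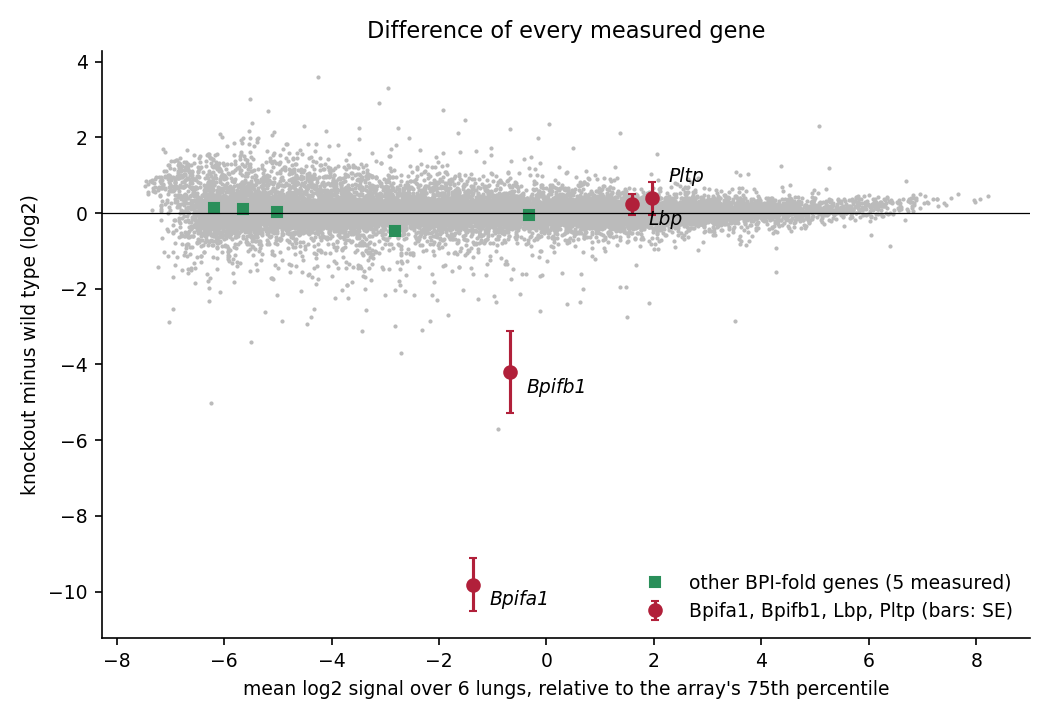
Log2 difference, knockout minus wild type, of all 20241 genes (y axis) against the mean log2 level over the 6 lungs (x axis), with the 4 genes in red (bars for SE) and the 5 other measured BPI-fold genes as green squares. Bpifa1 at -9.81 is the lowest of all genes. Bpifb1 at -4.19 lies far below the bulk, though Reg3g, at a similar mean level, is lower still at -5.69. Lbp at 0.23 and Pltp at 0.39 lie among the bulk.

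Bpifa1 was lower in the knockout relative to each of the other members, Bpifb1 included. The difference of Bpifa1 minus Bpifb1 within a lung, which has meaning only between lungs, was -2.55 in knockout 1, -3.93 in knockout 11 and -4.02 in knockout 12, against 2.06 in wild type 11, 2.34 in wild type 12 and 1.96 in wild type 13. Every knockout lung therefore had less Bpifa1 relative to Bpifb1 than any wild-type lung, by a mean of -5.62. The Bpifa1 spot of knockout 1 was not well above background, and with it at the lowest detected level of its array knockout 1 had -1.69 and the mean difference was -5.34. In an exact two-sided permutation test over the lungs this gave p = 0.1, the smallest that 3 against 3 allows, and 0.12 after Benjamini-Hochberg adjustment over the 6 pairs of genes. Bpifa1 minus Lbp and Bpifa1 minus Pltp differed by -10.05 and -10.21 between the genotypes (-9.76 and -9.92 with that spot so raised), and Bpifb1 minus Lbp and Bpifb1 minus Pltp by -4.42 and -4.58, each at the same exact permutation p. These pairs with Lbp or Pltp largely restate the differences of Bpifa1 and Bpifb1 taken alone. Lbp minus Pltp differed by -0.16, at an exact permutation p of 0.9, and its groups overlapped.

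Bpifa1 and Bpifb1 sit in a cluster of BPI-fold genes, and the 5 other family genes measured overlapped between the genotypes. The cluster on chromosome 2 holds 8 measured transcripts over a span of 375 kb (mm7), and the Bpifb1 probe lies 69.5 kb from that of Bpifa1. Bpifa5, whose probe is nearer to Bpifa1 at 20.7 kb, had levels of -2.72, -4.10 and -2.36 in knockout 1, knockout 11 and knockout 12, and -2.59, -2.73 and -2.46 in wild type 11, wild type 12 and wild type 13. Its groups overlapped and its difference was -0.47 (SE 0.45). Bpifb5, at 91.2 kb, differed by -0.04 (SE 0.21). Bpifb6 differed by 0.01 (SE 0.33), Bpifb2 by 0.14 (SE 0.28) and Bpifa2, the parotid secretory protein, by 0.12 (SE 0.37). These last genes were dim, with wild-type means of -5.02, -6.26 and -5.70 in that order. The lowest detected levels of the arrays ran from -7.02 in knockout 1 to -6.30 in wild type 11. A fall as large as that of Bpifa1 or Bpifb1 could therefore not have been measured in them.

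Of 13 other BPI-fold genes looked for, 11 had a probe and 5 passed the filter on dim probes, so the 5 above are not all of the family. At an unadjusted p under 0.05, 0 of these 5 differed in either direction, and their median difference was 0.01, where the median over all genes was 0.02. That median was -0.20 within day 1 and 0.30 within day 2. Bpi, the neutrophil granule protein that gives the fold its name, was not well above background on any of the 6 arrays, and neither were Bpifa3, Bpifb3, Bpifb4, Bpifc and the probe of Bpifb9a, to which the array files also assign Bpifb9b. Bpifa6 was not analysed here. The probes that met the filter in only part of the arrays were those of Bpifa2 and Bpifb2.

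Outside the cluster, 34 measured genes lay within 1000 kb of its ends. At an unadjusted p under 0.05, 0 of these 34 were lower and 1 was higher, where 0.622% and 0.336% of all genes were. Their median difference was 0.09. The nearest were Mapre1, a microtubule end-binding protein, on one side at 0.01 (SE 0.22), and Cdk5rap1, a tRNA-modifying enzyme, on the other at -0.61 (SE 0.33, unadjusted p = 0.109 in limma). Lbp and Pltp are on the same chromosome at 4.18 Mb and 10.7 Mb from Bpifa1.

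**Figure D3:**
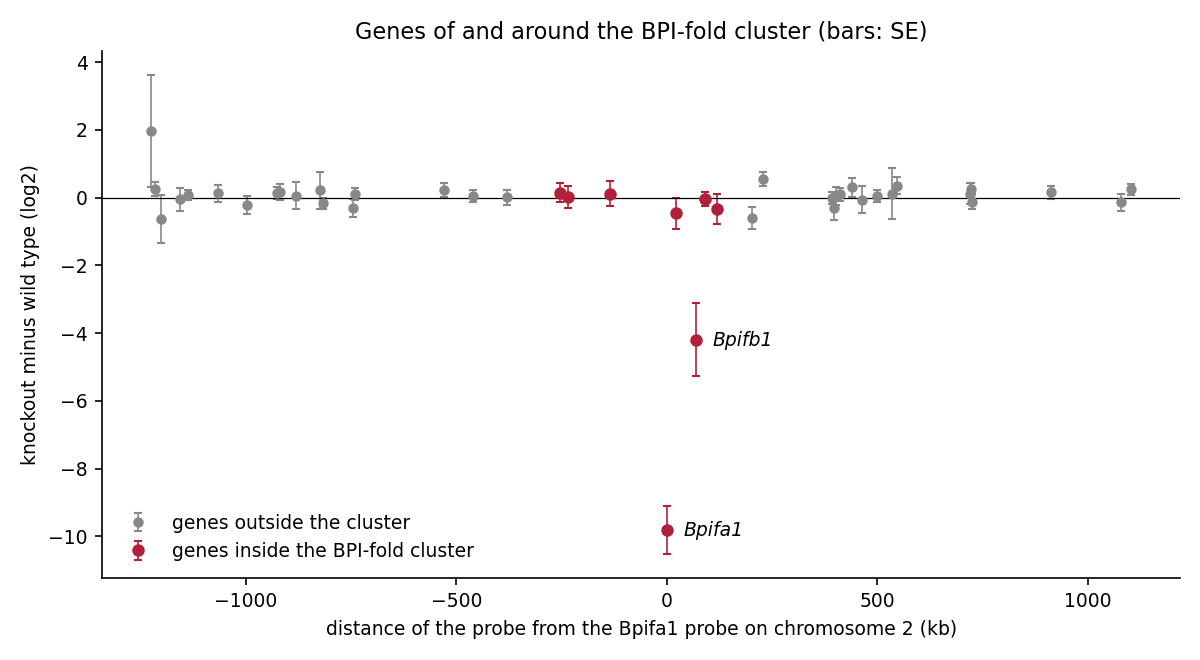
Log2 difference, knockout minus wild type, of each measured gene inside (red) and around (grey) the BPI-fold cluster (y axis, bars for SE) against distance from the Bpifa1 probe (x axis, kb). Bpifa1 and Bpifb1 are far below 0, while the 34 genes outside the cluster range between -0.62 and 1.97.

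The promoter sequences of Bpifa1 and Bpifb1 are shown because these 2 genes were the low ones, and they are taken from RefSeq on build GRCm38.p6, as the 250 bases before each annotated start. Capitals mark matches to any of 4 motifs searched on both strands, namely TATAAA (the TATA box), TGTTTAC (forkhead), CAAGTG (NK2 homeobox) and TTGCNNAA (C/EBP).
Bpifa1 start, chr2:154142630-154142879, plus strand: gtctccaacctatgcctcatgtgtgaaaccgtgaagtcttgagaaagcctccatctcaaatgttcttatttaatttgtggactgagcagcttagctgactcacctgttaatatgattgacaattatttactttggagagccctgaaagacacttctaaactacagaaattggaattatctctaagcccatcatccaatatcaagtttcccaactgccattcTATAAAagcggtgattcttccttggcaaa
Bpifb1 first start, chr2:154190568-154190817, plus strand: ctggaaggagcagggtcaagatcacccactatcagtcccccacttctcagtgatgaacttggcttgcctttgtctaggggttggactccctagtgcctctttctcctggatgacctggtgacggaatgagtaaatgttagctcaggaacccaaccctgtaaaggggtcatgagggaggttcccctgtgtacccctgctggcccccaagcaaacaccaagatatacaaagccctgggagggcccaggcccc
Bpifb1 second start, chr2:154200130-154200379, plus strand: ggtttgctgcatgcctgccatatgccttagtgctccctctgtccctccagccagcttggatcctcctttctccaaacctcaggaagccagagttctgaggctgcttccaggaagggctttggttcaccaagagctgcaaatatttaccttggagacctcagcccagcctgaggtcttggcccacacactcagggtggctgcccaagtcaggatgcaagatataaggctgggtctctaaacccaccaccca

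The Bpifa1 window holds 1 match, a TATAAA beginning 29 bases before the start, which 12.4% of the 32851 promoter windows of this length also hold. The Bpifb1 windows hold none of the 4 motifs. The window of Pltp holds CAAGTG beginning 226 and 110 bases before the start and TTGCNNAA beginning 161 bases before it, with no overlap between them. Over all promoters, TGTTTAC was present in 3.17%, CAAGTG in 11.6% and TTGCNNAA in 9.56%. A match describes letters in a window, and no match says only that these letters are not in it.

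The genes whose profile over the 6 lungs was nearest to Bpifb1 were Tff2, a trefoil factor secreted with mucus, and Scgb3a1, a secretoglobin of airway secretory cells. Nearness was measured as the root mean square distance between mean-centred log2 levels over the 6 lungs, with no test, and was 0.65 for Tff2 and 0.70 for Scgb3a1, where the profile of Bpifb1 itself has a root mean square of 2.48. Olfm4, a secreted olfactomedin, followed at 1.12, and the cytochromes P450 Cyp2a5 and Cyp2a4, whose sequences are near-identical, at 1.23 and 1.26. Olfm4 was not well above background in 3 of 3 knockout lungs and was at least 1.95-fold lower there. It passed the filter on dim probes through the wild-type lungs alone, and its distance rests on those undetected knockout values.

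Tff2 had levels of -6.17 in knockout 1, -3.38 in knockout 11 and -4.15 in knockout 12, against -0.99 in wild type 11, -1.61 in wild type 12 and 0.005 in wild type 13. Scgb3a1 had levels of -0.79, 3.89 and 3.14 in the knockout lungs, in the same order, and 5.11, 4.52 and 5.20 in the wild-type lungs. In both genes knockout 1 was the lowest lung, knockout 11 the highest of the knockouts and wild type 12 the lowest of the wild types, as for Bpifb1. Both genes were picked for a profile near that of Bpifb1, so this shared order follows in large part from the choice. The differences were -3.70 (SE 0.78) for Tff2 and -2.86 (SE 1.19) for Scgb3a1.

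For Bpifa1 no profile came as close. The distance is not scaled for the size of a gene's difference, and that of Bpifa1 was the largest of all 20241 genes. Its distances thus follow in large part how much lower a gene was, and shared regulation was not tested. The 5 nearest were Reg3g, an epithelial C-type lectin active against bacteria, at 2.54, then Bpifb1 at 2.85, Tff2 at 3.09, Slc5a8, an epithelial monocarboxylate transporter, at 3.38, and Scgb3a1 at 3.53, where the profile of Bpifa1 itself has a root mean square of 4.98. Reg3g had levels of -8.13 in knockout 1 (a spot not well above background), -0.34 in knockout 11 and -2.76 in knockout 12, against 2.30 in wild type 11, 1.44 in wild type 12 and 2.11 in wild type 13. Its order over the lungs was that of Bpifa1 within each genotype, which its choice as the nearest profile favours, and its difference was -5.69 (SE 1.87). Slc5a8, like Olfm4, was not well above background in 3 of 3 knockout lungs and was at least 7.22-fold lower there. The same limits of filter and distance hold for it.

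**Figure D4:**
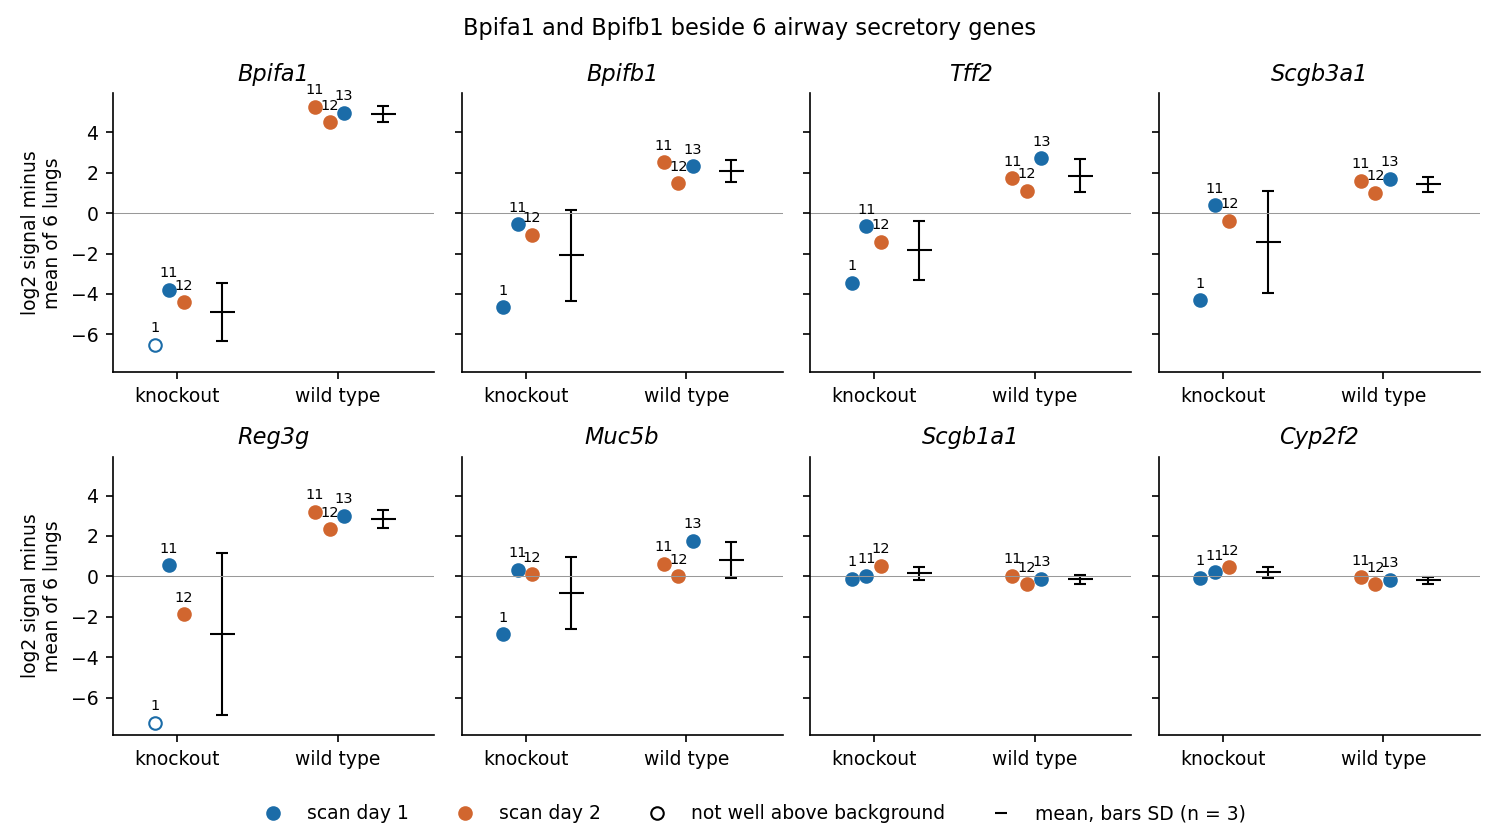
Mean-centred log2 levels over the 6 lungs (y axis) of Bpifa1, Bpifb1 and 6 airway secretory genes, knockout left and wild type right in each panel, with numbers naming the lungs, open points where a spot was not well above background, and bars for mean and SD (n = 3). Knockout 1 is the lowest lung for Bpifa1, Bpifb1, Tff2, Scgb3a1, Reg3g and Muc5b, while Scgb1a1 and Cyp2f2 are nearly level over the 6 lungs.

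Not all airway secretory genes were lower. Of 18 listed for airway secretion and host defence, 16 were measured, and at an unadjusted p under 0.05 in limma 4 were lower in the knockout (Tff2, the iron-binding Ltf, Reg3g and the disulphide isomerase Agr2), 0 were higher and 0 passed after adjustment over all genes. Over all genes 0.622% were lower and 0.336% higher at that threshold, the shares to set beside the lists below too. Ltf is also in the neutrophil granule list below. The median difference of the list was -0.31, with -0.33 within day 1 and -0.18 within day 2. Scgb1a1, the secretoglobin that marks club cells, differed by 0.30 (SE 0.23), and Cyp2f2, a cytochrome P450 of the same cells, by 0.39 (SE 0.20). Muc5b, a gel-forming mucin, had levels of -3.24, -0.05 and -0.27 in knockout 1, knockout 11 and knockout 12, and 0.25, -0.38 and 1.37 in wild type 11, wild type 12 and wild type 13, so that its groups overlapped. The summed signal of the list, in units of the array's 75th percentile, was 802 to 1170 in the knockout and 686 to 895 in the wild type. A summed signal, here and for the lists below, is carried by the brightest probes of a list. Here these include Scgb1a1 and Cyp2f2, so the sum hardly registers the dimmer genes that were lower. Without knockout 1 the median was -0.23.

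Markers of other airway compartments are given beside these values, and their part in the low Bpifa1 and Bpifb1 was not tested. Of 9 measured genes of basal and squamous epithelium, 1 was lower at an unadjusted p under 0.05 in limma and 0 were higher. The lower gene was the keratin Krt15, at -1.44 (SE 0.43). Krt5, the defining keratin of basal cells, differed by -0.96 (SE 0.51, unadjusted p = 0.106 in limma). Its knockout levels were all below those of the wild type, narrowly, with -3.67 in knockout 1 and -3.60 in wild type 12. The groups did not overlap in that direction for 1.47% of all genes. Of the 9 genes, 6 differed below 0 and 3 above 0, among the latter Sprr1a at 0.48 (SE 0.38). The median of this list was -0.21, with -0.41 within day 1, 0.18 within day 2 and -0.35 without knockout 1, and its summed signal was 0.506 to 1.16 in the knockout and 0.947 to 1.22 in the wild type. Of 9 measured genes of airway cartilage, 0 passed in either direction. Their median was -0.19, with -0.30 within day 1, 0.15 within day 2 and -0.32 without knockout 1, with a summed signal of 1.91 to 4.61 in the knockout and 2.88 to 4.11 in the wild type. Of 10 genes of ciliated cells 0 passed, with a summed signal of 14.2 to 20.4 in the knockout and 14.3 to 21.8 in the wild type. Their median of 0.05 was likewise made of opposite signs, at -0.46 within day 1 and 0.71 within day 2, with 0.23 without knockout 1, and the ciliated cell regulator Foxj1 differed by -0.06 (SE 0.16). The alveolar type 2 list had 0 of 10 genes past that threshold, with a median of 0.07, or 0.20 within day 1 and 0.22 within day 2.

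Lbp acts in the recognition of lipopolysaccharide, and the genes listed for that pathway held no call. Of 15 listed, 14 were measured, 0 were lower and 0 were higher at an unadjusted p under 0.05 in limma, and the median was -0.11, with 0.07 within day 1, -0.06 within day 2 and -0.02 without knockout 1. The co-receptor Cd14, to which Lbp hands its ligand, differed by -0.41 (SE 0.40), with levels of 0.50, 1.91 and 1.73 in knockout 1, knockout 11 and knockout 12, and 2.003, 1.79 and 1.56 in wild type 11, wild type 12 and wild type 13. The receptor Tlr4 differed by -0.35 (SE 0.25), the adaptor Myd88 by -0.36 (SE 0.27) and the inhibitory kinase Irak3 by -0.39 (SE 0.27). Cd180, a relative of Tlr4 on B cells and other leukocytes, had the widest difference of the list and in the other direction, at 0.60 (SE 0.46). The macrophage list, for cells that carry these receptors, had 0 of 10 genes past that threshold and a median of -0.06, which was 0.07 without knockout 1.

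As Lbp is an acute phase protein, the acute phase and hepatocyte lists are set beside it. Of 15 measured acute phase genes, 1 was lower at an unadjusted p under 0.05, the orosomucoid Orm1 at -1.19 (SE 0.44), and 0 were higher. The median of -0.41 came to -0.08 without knockout 1, and it was -0.12 within each scan day. Of 8 measured hepatocyte genes 0 had an unadjusted p under 0.05. Their median of -0.62 was made of opposite signs by scan day, at 0.86 within day 1 and -1.88 within day 2, with -1.20 without knockout 1. Albumin (Alb) was -1.54 in knockout 1, -4.45 in knockout 11 and -4.02 in knockout 12, against -2.20 in wild type 11, -1.35 in wild type 12 and -4.001 in wild type 13. Knockout 1, wild type 11 and wild type 12 were the high lungs for Alb. These same 3 lungs were the lowest for Lbp, whose 3 higher lungs were knockout 11, knockout 12 and wild type 13. The neutrophil granule list, which stands for cells that carry Bpi, had 12 of 12 genes measured. At an unadjusted p under 0.05 in limma, 3 were lower and 0 higher, where 0.622% and 0.336% of all genes were. The 3 were Ltf, counted above among the airway secretory genes, the protease Prtn3 and the gelatinase Mmp9. All 12 differed below 0, and for 3 the groups did not overlap in that direction, where 1.47% of all genes did not. The median was -0.73, with -0.06 within day 1 and -1.33 within day 2.

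Pltp belongs to the handling of lipoprotein lipids. Of 16 listed genes 15 were measured, and 0 were lower and 0 were higher at an unadjusted p under 0.05 in limma, with a median difference of 0.05, or 0.13 without knockout 1. The smallest p was that of the apolipoprotein Apoc1, at 0.55 (SE 0.24, unadjusted p = 0.057), followed by the apolipoprotein Apoe at 0.28 (SE 0.20), the lipoprotein receptor Scarb1 at 0.23 (SE 0.21) and the endothelial lipase Lipg at 0.33 (SE 0.31). Apoc1 had levels of 3.23, 3.11 and 2.79 in knockout 1, knockout 11 and knockout 12, and 2.88, 2.33 and 2.26 in wild type 11, wild type 12 and wild type 13, which overlapped through wild type 11. The summed signal of the list was 110 to 131 in the knockout and 94.0 to 120 in the wild type.

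**Figure D5:**
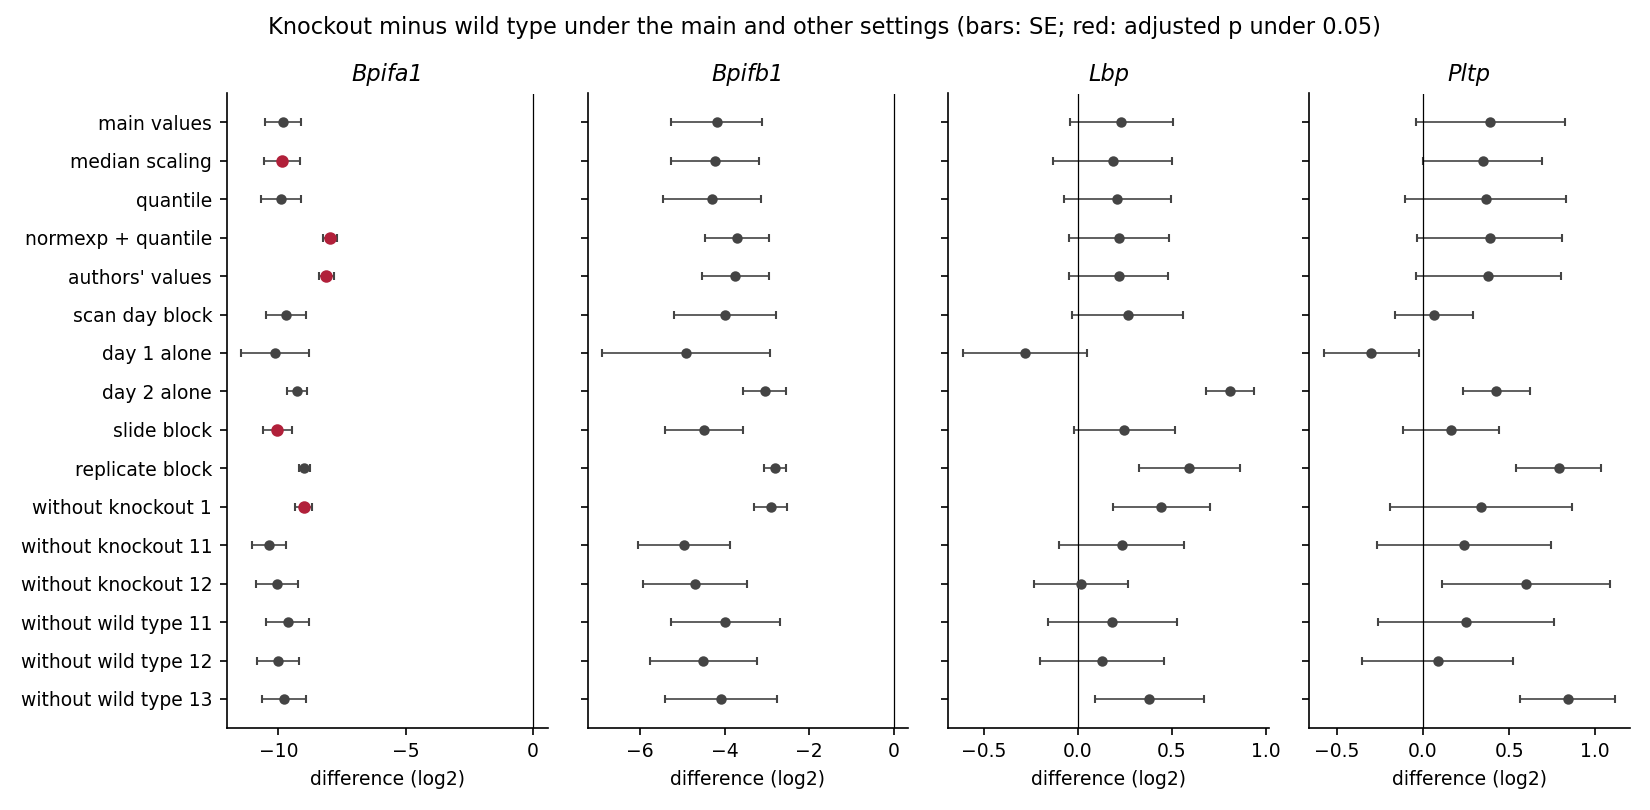
Log2 difference, knockout minus wild type, of each of the 4 genes (x axis) under the main setting and a selection of alternatives (rows, bars for SE), with red points where the adjusted p was under 0.05. Bpifa1 stays between -10.37 and -7.98 and Bpifb1 between -4.96 and -2.80 under the settings run, while Lbp and Pltp lie on both sides of 0.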

How the data were processed

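Per the labels' protocols, amplified Cy3-labelled RNA of 6 lungs was put on 1-colour Agilent arrays. The deposited scanner files hold an intensity per spot, which per the file headers was background-subtracted and detrended in Feature Extraction 9.5.1.1 (version 9.1 per the submitters' processing notes). The authors' series matrix holds log2 values with medians of 8.09, made in a way not given in the sources used here. Their scale was read from the values, which followed the median spot signal (Spearman correlation above 0.9999 across probes).

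Flagged spots were left out, spots of a probe averaged and 30 probes dropped. The main values were log2 processed signal minus the array's 75th percentile. A gene was its brightest probe among those well above background on at least 3 of 6 arrays. Genes were named through a RefSeq table (GRCm38.p6), which matched 32737 probes, and 8437 kept the array's name. limma 3.58.1 in R 4.3.3 compared all 6 arrays without covariates, two-sided, with Benjamini-Hochberg adjustment over 20241 genes. A fit was also run on simulated data with known changes, with means and variances taken from these data.

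The members and lists were chosen with earlier results of these data known, and lists are described by counts and medians. Named genes were the 4 members, all other BPI-fold genes with probes, Rtn4, up to 4 genes a list with the smallest p, the 5 nearest profiles of Bpifa1 and of Bpifb1, and the genes flanking the cluster. Sftpc, Scgb1a1, Cyp2f2, Muc5b, Cd14, Krt5, Foxj1 and Alb were named as defining markers or for their role, after values had been seen. Alternatives covered normalization, background correction, the authors' values, filters, variance model, array weights, scan day, slide, a replicate block and each lung left out.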

Additional observations from a re-analysis of the deposited data

How the results depend on the processing

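Bpifa1 stayed lower under all 19 alternatives that gave a value, and the filter that asked for all 6 arrays above background left it out. It passed the adjusted threshold in limma under normexp with quantile normalization (-7.98), on the authors' values (-8.12), with median scaling (-9.86), with the trended and robust variance (-9.81), with array weights (-9.66) and with slide as a random block (-10.05). Leaving out each lung gave -10.37 to -9.01, and it passed without knockout 1 (-9.01, adjusted p = 0.0205, in a range of 0.0205 to 0.611). The cause of these changes of call was not tested. The number of genes past the threshold was 0, or 2 with array weights, median scaling and the slide block, and 1 on the authors' values, with normexp and with the trended variance, with 0 to 1 over the lungs left out. At an unadjusted p under 0.05 there were 194 genes, and over the alternatives between 92 (without wild type 11) and 4058 (array weights), with 4000 on day 2 alone, 1503 without wild type 13, 858 without knockout 12, 746 with the slide block, 647 with the replicate block, 447 on day 1 alone, 439 with the day block, 299 without knockout 11 and 112 without wild type 12. Bpifb1 stayed between -4.96 and -2.80 under all 20 alternatives and did not pass. Lbp and Pltp turned negative within day 1, at -0.28 and -0.30, and otherwise stayed positive and did not pass. The numbers 11 and 12 recur in both genotypes, but the labels do not tie them together and their deviations correlated at -0.24 and 0.42. With the number as a replicate block the differences were -8.98 for Bpifa1, -2.80 for Bpifb1, 0.59 for Lbp and 0.79 for Pltp, and 0 genes passed. Bpifa1 in knockout 1 lay below the detection limit, so the size of its difference is limited by signal over background.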

Other observations

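The brightest Rtn4 probe ordered the knockout lungs unlike the members did, with levels of 1.01 in knockout 1, -0.78 in knockout 11 and -1.87 in knockout 12, against 1.59 in wild type 11, 1.53 in wild type 12 and 2.28 in wild type 13. Knockout 1, the lowest lung for Bpifa1 and Bpifb1, was thus the highest knockout lung for this probe. Lipc, the hepatic lipase, was at -7.37 in knockout 11 and not well above background there, while the other knockout lungs were at -1.84 and -2.13 and the wild-type lungs between -2.34 and -2.27. Near the BPI-fold cluster, Mylk2, the myosin light chain kinase of skeletal muscle, was at 2.49 in knockout 1, against -3.44 and -3.77 in the other knockout lungs and -4.02 to -3.10 in the wild type. Lipc and Mylk2 were named after their values had been seen.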
